A study of Mus musculus with 4 samples.

Results

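The chemokines and chemokine receptors of inguinal white adipose tissue (ingWAT) were compared between Ctrl and cKO mice kept in the cold. Members were taken by name alone, as every gene whose symbol begins with Ccl, Cxcl, Xcl, Cx3cl, Ccr, Cxcr, Xcr, Cx3cr or Ackr and a number. Ccl19, Ccl21a, Cxcl13, Cxcr5 and Ccr7, which are best known for arranging lymphocytes in lymph nodes, matched the pattern and were left out. The rule found 53 of the 19030 genes in the expression table, which were 32 ligands, 17 typical receptors and 4 atypical receptors.

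Chemokines are small secreted proteins that draw leukocytes along gradients, and most are grouped as CC or CXC by the spacing of their first cysteines. They act through receptors that couple to inhibitory G proteins, whereas the atypical (Ackr) receptors bind chemokines without that coupling and mainly remove or carry them. In adipose tissue they are made by macrophages, vessel cells, fibroblastic progenitors and adipocytes, and are known for guiding monocytes, eosinophils and lymphocytes into the depot.

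The study asked how ingWAT responds when adipocytes lack organic cation transporter 3 (Oct3, gene Slc22a3), a carrier that takes up norepinephrine. Ctrl mice carried Oct3 fl/fl alleles, and cKO mice carried the same alleles with a Cre driven by the Adiponectin promoter, which is active in adipocytes, so other cells of the tissue kept the gene. All mice were labelled C57BL/6, 3 months old and housed at 4 °C, and polyadenylated RNA of whole ingWAT was sequenced in 2 libraries of each genotype. No source states how many mice made up a library, so the p-values measure the spread between these libraries, which may be technical.

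Values are FPKM, the fragments assigned to a gene scaled by transcript length and by the depth of the library, so levels of different genes can be set side by side. Fold changes are differences of log2(FPKM + 1), cKO against Ctrl, which understate the change of low genes. A gene was called higher or lower where limma gave an adjusted p under 0.05 (Benjamini-Hochberg, over the 12658 genes with a mean of at least 1 FPKM).

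The targeted gene agreed in direction with the genotype labels. Slc22a3 was 17.0 and 17.7 FPKM in the Ctrl libraries and 9.07 and 9.50 FPKM in the cKO libraries (log2 fold change -0.83, SE 0.066, adjusted p = 0.000439). The depth was estimated at 17850000 reads in each Ctrl library and at 17350000 and 17250000 reads in the cKO libraries. Adipocyte markers were high in all 4 libraries, with Adipoq at 966 to 1527 FPKM. Skeletal muscle markers set the genotypes apart. The sum of 6 of them, led by Acta1 and Tnnt3, was 1518 and 998 FPKM in Ctrl and 4.7 and 2.9 FPKM in cKO. The part of muscle RNA in the member values was not tested.

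The sequences just upstream of the genes are shown for 5 CXC ligands of chromosome 5, because Cxcl9 and Cxcl10 are close neighbours that moved in opposite directions and Cxcl1, Cxcl2 and Cxcl3 are low genes with higher values in both cKO libraries. Each is the 250 bases before the transcription start, 5′ to 3′ on the gene's own strand, from RefSeq (GRCm38.p6). Cxcl1 lies at chr5:90890995-90891244 (plus strand), Cxcl2 at chr5:90903649-90903898 (plus), Cxcl3 at chr5:90785851-90786100 (plus), Cxcl9 at chr5:92328080-92328329 (minus) and Cxcl10 at chr5:92348890-92349139 (minus). Capitals mark matches, on either strand, to the kappaB motif, to the core of the interferon-stimulated response element (GAAA, any 2 bases, GAAA) and to the cAMP response element core TGACGT, which reads ACGTCA on the other strand.
Cxcl1: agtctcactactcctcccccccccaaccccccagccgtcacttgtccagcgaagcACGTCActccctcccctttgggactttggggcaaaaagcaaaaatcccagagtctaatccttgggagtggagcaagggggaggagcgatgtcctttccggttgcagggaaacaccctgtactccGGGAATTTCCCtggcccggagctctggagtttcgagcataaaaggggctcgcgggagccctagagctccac
Cxcl2: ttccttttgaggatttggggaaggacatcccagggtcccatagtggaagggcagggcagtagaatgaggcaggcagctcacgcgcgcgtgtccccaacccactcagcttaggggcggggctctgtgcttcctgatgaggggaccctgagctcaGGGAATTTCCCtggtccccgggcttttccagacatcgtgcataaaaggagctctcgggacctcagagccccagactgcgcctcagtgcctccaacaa
Cxcl3: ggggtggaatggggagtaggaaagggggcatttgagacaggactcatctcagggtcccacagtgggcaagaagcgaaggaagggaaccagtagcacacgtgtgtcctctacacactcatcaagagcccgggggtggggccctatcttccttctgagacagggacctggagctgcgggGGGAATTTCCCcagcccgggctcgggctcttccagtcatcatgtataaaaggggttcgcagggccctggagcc
Cxcl9: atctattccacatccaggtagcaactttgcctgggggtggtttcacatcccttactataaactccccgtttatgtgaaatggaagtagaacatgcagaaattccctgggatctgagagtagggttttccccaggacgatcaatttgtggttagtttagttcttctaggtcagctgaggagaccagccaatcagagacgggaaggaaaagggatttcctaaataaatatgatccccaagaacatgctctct
Cxcl10: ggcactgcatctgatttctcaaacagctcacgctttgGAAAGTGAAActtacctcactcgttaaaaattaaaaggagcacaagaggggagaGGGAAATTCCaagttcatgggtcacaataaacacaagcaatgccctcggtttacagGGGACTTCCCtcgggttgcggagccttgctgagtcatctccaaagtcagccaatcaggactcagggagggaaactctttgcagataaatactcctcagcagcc

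Cxcl1, Cxcl2 and Cxcl3 shared one kappaB match, GGGAATTTCC, which began 71, 97 and 73 bases before the start. It matched on both strands at overlapping positions, which is why 11 bases are in capitals. Cxcl10 held the kappaB matches GGGAAATTCC and GGGACTTCCC, beginning 159 and 103 bases before the start, and the interferon core GAAAGTGAAA beginning at 213 bases. The Cxcl9 window held none of the 3 motifs, which says only that these letters are not in it. A RefSeq upstream sequence was found for 41 of the 53 members, of which 7 (17.1%) held a kappaB match, against 3.75% of 27025 upstream sequences, 1 for each gene. The 7 were Cxcl1, Cxcl2, Cxcl3, Cxcl10, Ccl9, Ccr3 and Ackr2, of which Cxcl10 rose, Ackr2 fell, Ccl9 was not called and the rest were too low to test. Cxcl1, Cxcl2 and Cxcl3 share the same match and lie in the same chromosomal cluster, so they are not independent of each other. An upstream sequence was found for only 5 of the 11 members called higher and 4 of the 6 called lower. Ccl2, Ccl5, Ccl7 and Ccl11 had none and were not searched. The interferon core was found in 2 members, Cxcl10 and Cxcl14 (4.88%, against 3.04%), of which the first rose and the second fell. The cAMP core was found in 2 members, Cxcl1 and Ccr1l1 (4.88%, against 6.56%).

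Of the 53 members, 37 reached a mean of 1 FPKM and were tested. They split into 11 called higher in cKO, 6 called lower and 20 not called. Those called were 45.9% of the members tested, against 25.8% of all genes tested, and the share of all genes was 12.0% for higher and 13.8% for lower. The median log2 fold change was 0.16 over the members tested and -0.01 over all genes tested. Among ligands, 7 rose, 4 fell and 11 were not called. Among typical receptors, 4 rose, none of the 12 tested fell and 8 were not called, and among the 3 atypical receptors tested 2 fell. Only Ccl2, Ccl7 and Cxcl10 changed by at least 1 on the log2 scale.

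The counts depended on single libraries. Without Ctrl replicate 1, 4 members were called higher and 1 lower, and without Ctrl replicate 2 the counts were 4 and 4. Without cKO replicate 1 they were 10 and 6, and without cKO replicate 2 they were 8 and 5. Ccl2, Ccl7, Cxcl10 and Cxcl14 were called in each of these fits and under the other filters, scalings and fits tried, and of these 4 only Cxcl14 fell short of an added log2 fold change of 1. With no filter on low values, where all 19030 genes are adjusted for, Ccl12, Ccl4, Ccl5 and Cxcl16 (adjusted p of 0.0515 to 0.111), Ccl24 (0.0592) and Ackr2 (0.0832) missed the threshold. Both cKO libraries lay above both Ctrl libraries in 17 members tested and below in 7, and the groups overlapped in 13. Groups that did not overlap were seen in 66.5% of all genes tested.

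**Figure D1:**
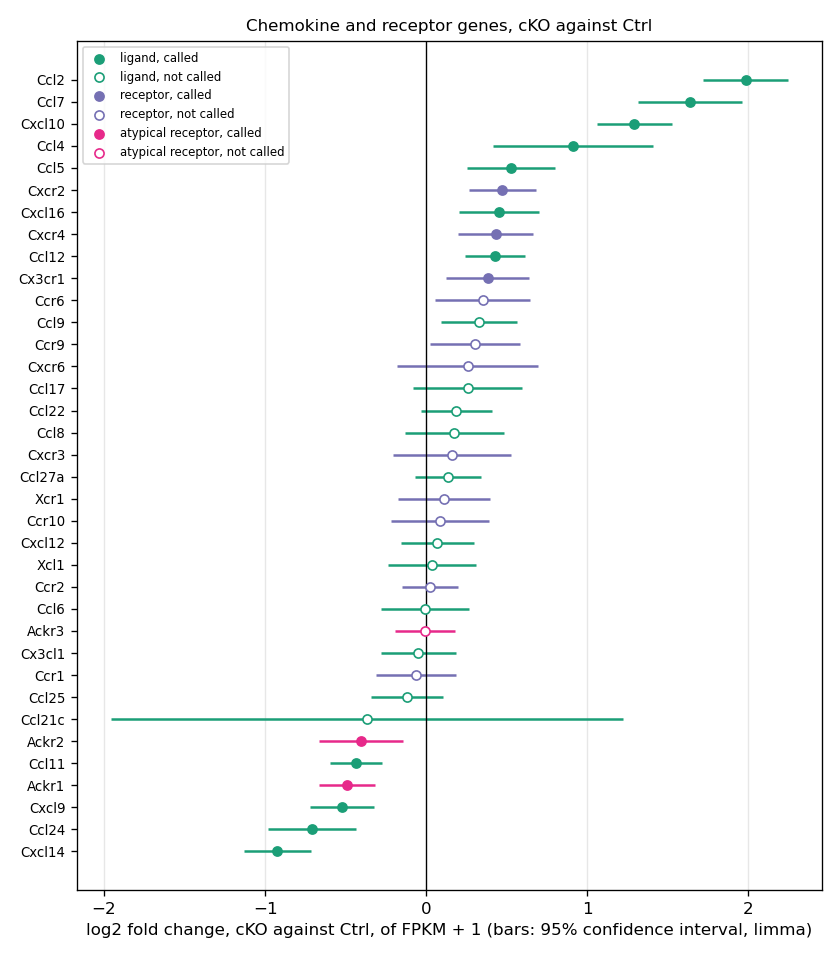
Log2 fold change of FPKM + 1, cKO against Ctrl, of the members tested, with the 95% confidence interval of limma as a bar and filled points for adjusted p under 0.05. Ccl2, Ccl7 and Cxcl10 lie furthest to the right at 1.98, 1.64 and 1.29, and Cxcl14 furthest to the left at -0.93.

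The summed level of the family was set by a few abundant ligands. The 53 members together came to 696 and 646 FPKM in Ctrl and 723 and 782 FPKM in cKO. The ligands made up 598, 552, 621 and 675 FPKM of these sums, in the same order. Ccl5, Cxcl12, Ccl6 and Ccl8 alone held 66.4% to 70.3% of the ligand sum in each library, and of these 4 only Ccl5 was called. The 3 ligands with the largest changes, Ccl2, Ccl7 and Cxcl10, were not among them.

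**Figure D2:**
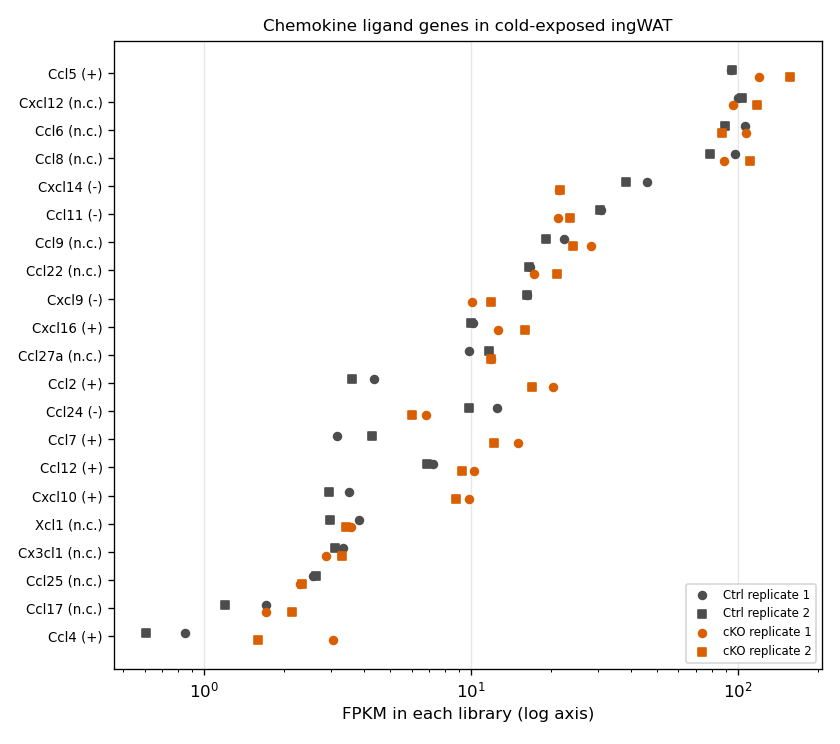
FPKM of each ligand tested in each library, on a log axis, in order of mean level, with + for called higher in cKO, - for called lower and n.c. for not called. Ccl21c is not drawn because it was at 0 in 1 library, and the cKO points of Ccl2, Ccl7 and Cxcl10 stand well to the right of the Ctrl points.

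Of the 4 CC ligands that attract monocytes, 3 rose. Ccl2 (gene ID 20296), the main ligand of Ccr2 on inflammatory monocytes, was 4.35 and 3.58 FPKM in Ctrl and 20.4 and 17.0 FPKM in cKO. The means were 3.97 ± 0.544 and 18.7 ± 2.39 FPKM (SD, n = 2), a ratio of 4.71 (log2 fold change 1.98, SE 0.111, adjusted p = 0.000161). Its lowest cKO library was thus well above its highest Ctrl library. Ccl7, a second ligand of Ccr2, was 3.15 and 4.28 FPKM in Ctrl and 15.0 and 12.3 FPKM in cKO, a ratio of 3.67 (log2 fold change 1.64, SE 0.137, adjusted p = 0.00051). Ccl12, a mouse ligand of Ccr2, went from 7.23 and 6.83 FPKM to 10.3 and 9.30 FPKM (log2 fold change 0.43, SE 0.0792, adjusted p = 0.00855). Ccl12 lost its call without either Ctrl library (adjusted p = 0.0776 without replicate 1 and 0.0864 without replicate 2). Ccl8, which also attracts monocytes and in mice acts on Ccr8, was the most abundant of the 4 at 98.0 and 79.0 FPKM in Ctrl and 88.7 and 111 FPKM in cKO, and its groups overlapped. Its log2 fold change was 0.17, with a 95% interval of -0.13 to 0.48. The ratio of Ccl2 to Ccl8 was 0.0444 and 0.0453 in Ctrl and 0.229 and 0.152 in cKO.

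Monocyte and macrophage markers did not move as a block beside these ligands. Of 11 markers, 3 rose and 4 fell, and their summed level was 741 to 816 FPKM in Ctrl and 833 to 865 FPKM in cKO. Lyz2, the lysozyme of myeloid cells, was 543 to 593 FPKM in Ctrl and 607 to 649 FPKM in cKO and was not called, while Cd68, a lysosomal protein of macrophages, rose from a mean of 39.7 to 66.6 FPKM (adjusted p = 0.00281). Named after their values were seen, Fcgr1 (log2 fold change 1.184) and Ly6c2 (0.743) rose too. Cd163 (-1.105), Mrc1 (-0.722), Cd14 (-0.632) and Csf1r (-0.269) fell. The part of these markers in the ligand values was not tested. In whole tissue, more cells of a type and more RNA per cell cannot be told apart, and this holds for each value given here.

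Ccl5, Ccl4 and Ccl3 are CC ligands released by activated T cells and macrophages. Ccl5 was the most abundant member by its mean, at 94.5 and 95.3 FPKM in Ctrl and 119.9 and 157 FPKM in cKO (log2 fold change 0.53, SE 0.115, adjusted p = 0.0159). The Ctrl libraries were nearly equal, and the cKO libraries lay apart from each other. Ccl4 was near the FPKM minimum, at 0.85 and 0.61 FPKM in Ctrl and 3.06 and 1.60 FPKM in cKO, or about 9.5, 6.8, 33.1 and 17.2 reads (log2 fold change 0.91, SE 0.211, adjusted p = 0.0194). Its Ctrl mean of 0.73 FPKM was under the minimum, so it was tested only through its cKO libraries, and its call is no support for a difference. Neither call held throughout. Without Ctrl replicate 1 the adjusted p was 0.144 for Ccl5 and 0.112 for Ccl4, and without Ctrl replicate 2 it was 0.114 and 0.141. Without cKO replicate 1 it was 0.0591 for Ccl4. The annotated models of Ccl3 and Ccl4 overlap on chromosome 11 and the counting is not stated to use strand, so reads of the pair may not be cleanly divided.

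Ccl6 and Ccl9, macrophage and myeloid chemokines that act mainly on Ccr1, complete the group. Ccl6 was 106 and 89.4 FPKM in Ctrl and 107.5 and 87.6 FPKM in cKO, with a log2 fold change of -0.01 (95% interval -0.28 to 0.27). Ccl9 was 22.4 and 19.1 FPKM in Ctrl and 28.3 and 24.2 FPKM in cKO, so its groups did not overlap, but it missed the threshold (log2 fold change 0.33, adjusted p = 0.0527).

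Both eotaxins fell. Ccl11 and Ccl24 attract eosinophils through Ccr3. Ccl11 was 30.8 and 30.4 FPKM in Ctrl and 21.2 and 23.6 FPKM in cKO (log2 fold change -0.44, SE 0.0685, adjusted p = 0.00457). Ccl24 was 12.5 and 9.82 FPKM in Ctrl and 6.78 and 6.05 FPKM in cKO (log2 fold change -0.71, SE 0.115, adjusted p = 0.00521). Their receptor Ccr3 was too low to test, at 0.12 to 0.16 FPKM in the 4 libraries. Without Ctrl replicate 1 the adjusted p was 0.0694 for Ccl11 and 0.0632 for Ccl24. The eosinophil markers found in the table, Il5ra, Prg2 and Siglecf, were low, with a sum of 2.0 FPKM in each Ctrl library and 1.8 FPKM in each cKO library. Markers of fibroblasts and adipocyte progenitors fell beside the eotaxins, 5 of 7 called lower, with a summed level of 1117 to 1286 FPKM in Ctrl and 748 to 760 FPKM in cKO. Dpt, a matrix protein of fibroblasts, had means of 401 and 200.8 FPKM, and Ly6a, a progenitor surface antigen, was 240 and 220 FPKM and was not called. Monocyte and macrophage markers were split, with 4 of 11 called lower and 3 called higher. The part of either list in the eotaxin values was not tested. The ratio of Ccl2 to Ccl11 was 0.141 and 0.118 in Ctrl and 0.960 and 0.719 in cKO.

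The CXC ligands known as interferon-induced genes, Cxcl9, Cxcl10 and Cxcl11, share the receptor Cxcr3 on activated T cells. Cxcl10 rose from 3.49 and 2.95 FPKM to 9.85 and 8.80 FPKM (log2 fold change 1.29, SE 0.0979, adjusted p = 0.000389). Cxcl9 fell from 16.2 FPKM in both Ctrl libraries to 10.1 and 11.9 FPKM (log2 fold change -0.52, SE 0.0841, adjusted p = 0.00499). The 2 ligands thus moved in opposite directions. The ratio of Cxcl9 to Cxcl10 was 4.64 and 5.50 in Ctrl and 1.03 and 1.35 in cKO. Cxcl9 lost its call without Ctrl replicate 1 (adjusted p = 0.0763) and without Ctrl replicate 2 (adjusted p = 0.0591), while Cxcl10 kept it without any single library (adjusted p of 0.00515 to 0.0119). Cxcl11, named here after its values were seen, was too low to test, at 0.25 and 0.22 FPKM in Ctrl and 0.11 and 0.09 FPKM in cKO. These values stand for about 6.9 and 6.1 reads in Ctrl and 2.9 and 2.4 reads in cKO. Both of its cKO libraries lay below both Ctrl libraries, and groups did not overlap in 66.5% of all genes tested.

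Of the 4 ligands tested that are made without an inflammatory stimulus, Cxcl14 fell and the others were not called. Cxcl14, made by fibroblasts, epithelia and adipocytes, was 45.8 and 38.1 FPKM in Ctrl and 21.4 and 21.7 FPKM in cKO. The means were 42.0 ± 5.40 and 21.5 ± 0.198 FPKM (SD, n = 2), and the log2 fold change was -0.93 (SE 0.0878, adjusted p = 0.000805). It was the most strongly lowered member tested and kept its call without any single library (adjusted p of 0.0047 to 0.0134). Cxcl12, the ligand of Cxcr4 and Ackr3 made by stromal cells, was 99.9 and 103 FPKM in Ctrl and 96.1 and 118 FPKM in cKO (log2 fold change 0.07, 95% interval -0.16 to 0.30). Ccl27a, a skin chemokine that acts on Ccr10, had means of 10.8 and 11.9 FPKM, and Ccl25, a thymic and gut chemokine that acts on Ccr9, had means of 2.61 and 2.32 FPKM, and neither was called. Ccl27a and Ccl27b are near copies whose reads may not be cleanly divided.

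Cxcl16 and Cx3cl1 are made as membrane proteins that can be shed. Cxcl16, the ligand of Cxcr6, was 10.1 ± 0.17 FPKM in Ctrl (SD, n = 2) and 12.6 and 16.0 FPKM in the cKO libraries (log2 fold change 0.45, SE 0.105, adjusted p = 0.02). Its call was lost without Ctrl replicate 1 (adjusted p = 0.144), without Ctrl replicate 2 (0.137) and without cKO replicate 2 (0.0565). Cx3cl1 was 3.32 and 3.10 FPKM in Ctrl and 2.86 and 3.29 FPKM in cKO and was not called (95% interval of the log2 fold change -0.28 to 0.19). Ccl22 and Ccl17 attract Ccr4-bearing T cells. Ccl22 had means of 16.6 and 19.1 FPKM and Ccl17 of 1.46 and 1.93 FPKM, and both were uncalled (adjusted p = 0.187 and 0.236). Ccl22 was called higher without cKO replicate 1 (adjusted p = 0.0391). Xcl1, made by cytotoxic lymphocytes, had means of 3.40 and 3.49 FPKM. Ccl21c was 1.35 and 2.76 FPKM in Ctrl and 4.30 and 0 FPKM in cKO, and it shares reads with near-identical copies of Ccl21, so its value is uncertain. Without cKO replicate 1 it was called lower, at a log2 fold change of -1.57 (adjusted p = 0.0269).

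The neutrophil-attracting CXC ligands among the members, Cxcl1, Cxcl2, Cxcl3, Cxcl5 and Cxcl15, were all below the FPKM minimum. Cxcl1 was 0.52 and 0.48 FPKM in Ctrl and 0.99 and 0.73 FPKM in cKO. Cxcl2 was 0.05 and 0.11 FPKM in Ctrl and 0.76 and 0.38 FPKM in cKO, or about 1.0, 2.1, 14.1 and 7.0 reads. Cxcl3 was listed at 0 in both Ctrl libraries and was 0.88 and 0.35 FPKM in cKO, or about 15.0 and 5.9 reads. In these 3, as in Cxcl5, both cKO libraries lay above both Ctrl libraries, and groups did not overlap in 66.5% of all genes tested. Cxcl5 was 0 and 0.03 FPKM in Ctrl and 0.35 and 0.42 FPKM in cKO, or about 0, 0.8, 9.3 and 11.2 reads. Cxcl15 did not exceed 0.03 FPKM in any library. The values of Cxcl2, Cxcl3, Cxcl5 and Cxcl15 were singled out after they were seen. With no filter on low values 4 of the 53 members were called higher, Ccl2, Ccl7, Cxcl10 and Cxcl5 (adjusted p of Cxcl5 = 0.0285), against 3.50% of all 19030 genes. Without the filter Cxcl1, Cxcl2, Cxcl3 and Ccl3 were not called (adjusted p of 0.0638 to 0.122).

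Neutrophil markers rose beside these ligands and beside the receptor Cxcr2. Of 10 markers 4 were high enough to test and these rose, of which Retnlg passed the minimum only through its cKO libraries (means of 0.90 and 1.99 FPKM). The summed level was 11.4 to 11.9 FPKM in Ctrl and 25.9 to 27.9 FPKM in cKO. S100a8 and S100a9, calcium-binding proteins abundant in neutrophils and some monocytes, rose from means of 3.38 and 3.77 FPKM to 9.79 and 8.17 FPKM (adjusted p = 0.000189 and 0.000733). Of the 6 markers too low to test, Ly6g was at 0 to 0.06 FPKM, Mpo at 0 to 0.09 FPKM, Camp at 0.41 to 0.81 FPKM and Elane at 0.61 to 0.97 FPKM, with groups that overlapped. Mmp8 was 0.04 and 0.05 FPKM in Ctrl and 0.52 and 0.35 FPKM in cKO (adjusted p with no filter = 0.0434), and Ltf was 0.12 FPKM in both Ctrl libraries and 0.21 and 0.25 FPKM in cKO (0.1). The part of neutrophils in the ligand and receptor values was not tested.

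Of the other members below the minimum, Ccl3 was 0.35 and 0.29 FPKM in Ctrl and 1.79 and 1.04 FPKM in cKO, or about 4.6, 3.8, 22.7 and 13.1 reads. Ackr4, an atypical receptor for Ccl19, Ccl21 and Ccl25, was 0.89 to 1.04 FPKM in the 4 libraries. Ccr8, a receptor of regulatory T cells, was 0.29 to 1.17 FPKM and Ccl27b 0.49 to 0.69 FPKM, and both overlapped between groups. The remaining low members, Ccr4, Ccl28, Ccl1, Ccr3, Ccr1l1 and Cxcr1, did not exceed 0.74 FPKM in any library. Cxcr1 was listed at 0 in both Ctrl libraries and was 0.05 and 0.10 FPKM in cKO.

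Typical and atypical receptors had a summed level of 98.4 and 93.9 FPKM in Ctrl and 101 and 107 FPKM in cKO. Cxcr2, which guides neutrophils to Cxcl1, Cxcl2, Cxcl3 and Cxcl5, rose from 3.08 and 3.11 FPKM to 4.46 and 4.92 FPKM (log2 fold change 0.47, SE 0.0891, adjusted p = 0.00899). Cxcr4, the receptor of Cxcl12 found on most leukocytes, rose from 8.54 and 10.4 FPKM to 12.5 and 13.7 FPKM (log2 fold change 0.43, SE 0.0994, adjusted p = 0.0194). Cx3cr1, which marks patrolling monocytes and some macrophages, rose from 1.76 and 1.62 FPKM to 2.32 and 2.70 FPKM (log2 fold change 0.38, SE 0.11, adjusted p = 0.0417). In all 3 both cKO libraries lay above both Ctrl libraries, beside 66.5% of all genes tested whose groups did not overlap in either direction.

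Each of these calls was lost without at least 1 of the libraries. Without Ctrl replicate 1 the adjusted p was 0.0963 for Cxcr2, 0.147 for Cxcr4 and 0.148 for Cx3cr1. Without Ctrl replicate 2 it was 0.0729 for Cxcr2 and 0.18 for Cx3cr1. Without cKO replicate 1 it was 0.0556 for Cxcr4 and 0.0555 for Cx3cr1, and without cKO replicate 2 it was 0.105 and 0.138. With no filter on low values none of the 3 was called (adjusted p of 0.0502 to 0.101).

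**Figure D3:**
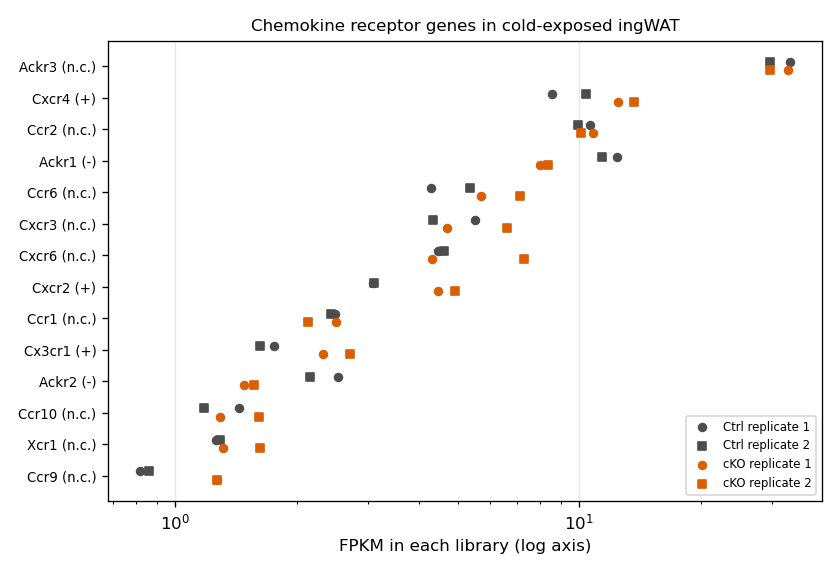
FPKM of typical and atypical receptors tested in each library, on a log axis, in order of mean level, with + for called higher in cKO, - for called lower and n.c. for not called. Cxcr2, Cxcr4 and Cx3cr1 have cKO points to the right of both Ctrl points, Ackr1 and Ackr2 have them to the left, and the points of Ccr2 and Ackr3 overlap.

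Ccr2, the receptor of Ccl2, Ccl7 and Ccl12, did not move with its ligands. It was 10.6 and 9.90 FPKM in Ctrl and 10.8 and 10.1 FPKM in cKO, with a log2 fold change of 0.02 and a 95% interval of -0.15 to 0.20. Cxcr3, the receptor of Cxcl9 and Cxcl10, was 5.53 and 4.35 FPKM in Ctrl and 4.71 and 6.64 FPKM in cKO, with a wider interval of -0.21 to 0.53. Cxcr6, the receptor of Cxcl16 on resident T cells, was 4.48 and 4.63 FPKM in Ctrl and 4.33 and 7.28 FPKM in cKO, so 1 cKO library stood apart from the other 3, and it was called higher without cKO replicate 1 (adjusted p = 0.0183). Ccr6, a receptor of B cells and some T cells, was 4.29 and 5.35 FPKM in Ctrl and 5.72 and 7.12 FPKM in cKO and missed the threshold (adjusted p = 0.0841). Ccr9, a gut-homing receptor, was 0.82 and 0.86 FPKM in Ctrl and 1.27 FPKM in both cKO libraries (adjusted p = 0.105). Both of its Ctrl values were under the FPKM minimum, so it was tested only through its cKO libraries. Ccr1, on monocytes and neutrophils, had means of 2.46 and 2.32 FPKM, Xcr1, of cross-presenting dendritic cells, 1.28 and 1.47 FPKM, and Ccr10, of skin-homing T cells, 1.31 and 1.45 FPKM. None of the 3 was called.

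Of the 3 atypical receptors tested 2 fell and none rose, beside 13.8% of all genes tested called lower. Ackr1, which binds many inflammatory chemokines on venules and red cell precursors, fell from 12.4 and 11.4 FPKM to 7.98 and 8.35 FPKM (log2 fold change -0.49, SE 0.0732, adjusted p = 0.00366). Ackr2, a scavenger of inflammatory CC chemokines found on lymphatic vessels, fell from 2.53 and 2.16 FPKM to 1.48 and 1.57 FPKM (log2 fold change -0.40, SE 0.111, adjusted p = 0.0363). Ackr3, which removes Cxcl12, was the most abundant receptor at 33.1 and 29.7 FPKM in Ctrl and 32.8 and 29.6 FPKM in cKO (log2 fold change -0.01, 95% interval -0.19 to 0.18). Ackr1 lost its call without Ctrl replicate 1 (adjusted p = 0.0694). Ackr2 lost it without any one of the 4 libraries, with an adjusted p of 0.2 and 0.0781 without Ctrl replicate 1 and 2 and of 0.107 and 0.0776 without cKO replicate 1 and 2.

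Some vessel markers fell beside Ackr1 and Ackr2. Of 6 endothelial markers 4 fell, with a summed level of 213 to 216 FPKM in Ctrl and 182 to 188 FPKM in cKO. The means of Pecam1 were 63.7 and 61.0 FPKM (not called) and those of Cdh5 were 60.7 and 51.1 FPKM (adjusted p = 0.019). Of 4 lymphatic endothelial markers 3 were tested and 1 fell, with sums of 37.7 to 42.7 and 31.6 to 34.9 FPKM. It was Lyve1, with means of 28.1 and 21.8 FPKM (adjusted p = 0.0232), while Pdpn had means of 8.65 and 7.40 FPKM. The part of vessels in the receptor values was not tested.

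Lymphocyte markers rose beside Ccl5, Cxcr4 and Cxcl16. Of 9 T cell markers 7 rose, with a summed level of 119 to 124 FPKM in Ctrl and 165 to 215 FPKM in cKO, led by Cd3g (18.8 to 30.5 FPKM) and Cd2 (18.5 to 29.1 FPKM). Of 8 B cell markers 7 rose, with sums of 251 to 284 and 386 to 438 FPKM, led by Cd79a (94.8 to 157 FPKM) and Cd79b (52.8 to 85.6 FPKM). With no filter on low values none of the 7 T cell markers kept the call (adjusted p of 0.0559 to 0.13) and, of the 7 B cell markers, Cd79a and Cd79b did. Of 4 lymph node vessel and stroma markers tested 2 rose, with sums of 85.4 to 85.7 and 121 to 143 FPKM. Ltb went from 46.2 to 82.4 FPKM (adjusted p = 0.000684). Tnfsf11 had means of 0.665 and 1.55 FPKM, so it was tested only through its cKO libraries and its call is no support for a difference. Glycam1 was not called at 33.6 to 39.5 FPKM in Ctrl and 39.7 to 52.2 FPKM in cKO. Of the 5 lymphoid genes that the symbol rule left out 3 rose, with Ccl19 (adjusted p = 0.00206), Ccr7 (0.00377) and Cxcr5 (0.00595) higher and Ccl21a (0.0596) and Cxcl13 (0.0959) not called, and with no filter 1 of the 3 kept the call. Of 7 NK cell markers 1 rose, with sums of 25.5 FPKM in both Ctrl libraries and 28.1 and 35.8 FPKM in cKO, and Nkg7 (13.5 and 18.4 FPKM) and Gzma (3.83 and 4.10 FPKM) were not called. The part of lymphocytes or of lymph node tissue in the member values was not tested.

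**Figure D4:**
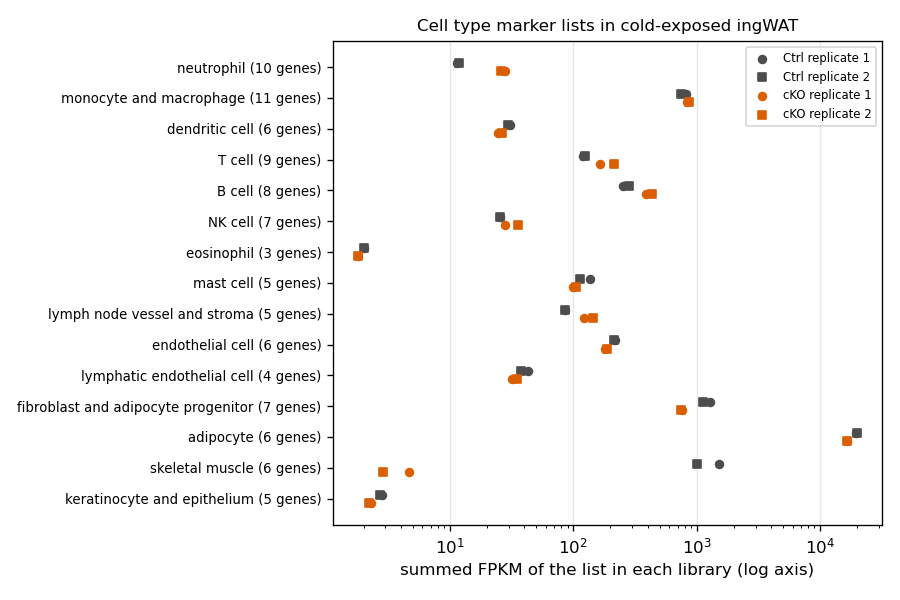
Summed FPKM of 15 lists of cell type markers in each library, on a log axis, with the number of genes found in the table. Relative to the Ctrl points, the cKO points lie to the right for the neutrophil, T cell and B cell lists and to the left for the fibroblast and progenitor list. The shift to the left is largest for the skeletal muscle list.

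Markers of the remaining cell types were counted too. The shares to set beside every marker list are 12.0% of all genes tested called higher and 13.8% called lower. Of 6 dendritic cell markers 1 rose and 1 fell, with sums of 29.5 to 30.5 and 24.7 to 26.7 FPKM, Cd209a falling from 12.3 to 6.86 FPKM (adjusted p = 0.000845) and Batf3 standing at 5.57 and 5.03 FPKM. Of 5 mast cell markers 2 fell, with sums of 113 to 137 FPKM in Ctrl and up to 105 FPKM in cKO, among them Tpsb2 (34.1 and 26.9 FPKM), while Mcpt4 (41.9 and 36.7 FPKM) was not called. The adipocytes, where the Cre is active, had 6 markers, of which 2 fell, with sums of 19551 to 19917 and 16506 to 16668 FPKM, Adipoq going from 1506 to 1006 FPKM (adjusted p = 0.00275) and Fabp4 uncalled. Keratinocyte markers were near 0, with sums of 2.2 to 2.8 FPKM over the 4 libraries, led by Krt10 and Epcam. Without the filter on low values 6 of the 7 called monocyte and macrophage markers kept their call, 4 of 5 of the fibroblast and progenitor list, 3 of 4 of the neutrophil list, 3 of 4 of the endothelial list, 1 of 2 of the mast cell list and 1 of 2 of the lymph node list, and Lyve1 lost its call.

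In 2 chromosomal clusters neighbouring members were called in opposite directions. On chromosome 11 (chr11:82035577-82179812, 144 kb, GRCm38.p6), Ccl2, Ccl7 and Ccl12 rose while Ccl11, which lies between Ccl7 and Ccl12, fell and Ccl8 was not called. Further along the same chromosome (chr11:83525778-83664683, 139 kb), Ccl5 rose and its neighbours Ccl9 and Ccl6 were not called. Ccl4, beyond them, was called higher too. It was tested only through its cKO libraries, so its call is no support for a difference. On chromosome 5 (chr5:92321331-92363296, 42 kb), Cxcl9 fell and its neighbour Cxcl10 rose. The cluster of Cxcl5, Cxcl3, Cxcl15, Cxcl1 and Cxcl2 (chr5:90759298-90905938, 147 kb) was below the FPKM minimum throughout. In all 5 both cKO libraries lay above both Ctrl libraries, beside 66.5% of all genes tested whose groups did not overlap in either direction. For Cxcl15 this rested on about 0.7 and 0 reads in Ctrl and 1.1 reads in each cKO library. The 3 ligands on chromosome 8 (chr8:94745684-94812038, 66 kb), Ccl22, Cx3cl1 and Ccl17, were not called.

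**Figure D5:**
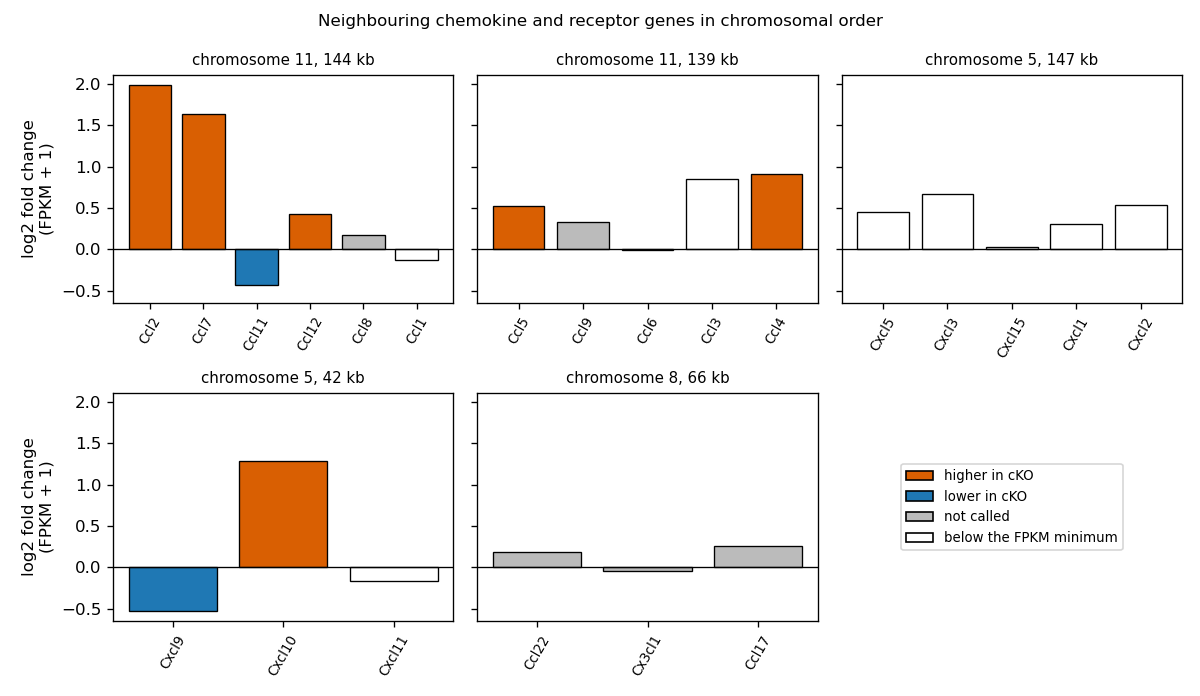
Log2 fold change of FPKM + 1, cKO against Ctrl, of members in 5 chromosomal clusters, in chromosomal order, with the call as colour and open bars for genes below the FPKM minimum. Bars of opposite sign stand next to each other for Ccl7 (1.64) and Ccl11 (-0.44) and for Cxcl9 (-0.52) and Cxcl10 (1.29).

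Ligands and their receptors were set side by side for known pairs in which both genes were tested. In no pair were both partners called lower or called in opposite directions. The ligand alone was called in 6 pairs, which were Ccl2, Ccl7 and Ccl12 with Ccr2, Cxcl9 and Cxcl10 with Cxcr3, and Cxcl16 with Cxcr6. The receptor alone was called in 2, Cxcr4 with Cxcl12 and Cx3cr1 with Cx3cl1, and neither in 4. Pairs that share a receptor are not independent of each other.

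Components of the signalling path below the receptors were taken from a list of 28 genes, all of which were tested. Over all genes tested, 12.0% were called higher and 13.8% lower, and the median was -0.01 on the log2 scale. Of the list 13 rose, 4 fell and 11 were not called, and its median was 0.29. The most abundant, the G protein subunits Gnai2 (176 and 190 FPKM) and Gnb1 (95.9 and 97.4 FPKM), were not called. Those that rose included, chosen after their values were seen, the leukocyte kinase Fgr (log2 fold change 0.66) and the small GTPase Rac2 (0.52) of haematopoietic cells. Those that fell were Dpp4 (-0.74), a protease that trims chemokines, Rgs18 (-0.40), Grk5 (-0.31) and Arrb1 (-0.26), which act on G proteins or receptors to end signalling. Other genes of that function, also named after their values were seen, rose, which were Rgs1 (0.58), Adrbk2 (0.51), Rgs2 (0.46) and Adrbk1 (0.29). Without the filter 7 of the 13 kept the call for higher and 3 of the 4 for lower, and Rac2 (adjusted p = 0.0516) and Rgs18 (0.0851) were among those lost.

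Genes related to chemokines but outside the symbol rule were split as well. Of 9, all tested, 3 rose and 3 fell, beside 12.0% and 13.8% of all genes tested. Rarres2, which encodes the adipose-derived attractant chemerin, fell from 308 and 269 FPKM to 183 and 192 FPKM (log2 fold change -0.62, adjusted p = 0.00205). Its receptors Cmklr1 (-1.04) and Gpr1 (-0.77) fell too, and these were singled out after their values were seen. Mif, a cytokine that binds Cxcr2 and Cxcr4, rose (0.40, adjusted p = 0.0043), as did Cklf (0.36) and the platelet chemokine Ppbp (0.97). Ppbp was under 1 FPKM in the Ctrl mean and Gpr1 in the cKO mean, so each was tested only through its higher group. Cd74, the invariant chain and a receptor of Mif, was 1164 to 1212 FPKM in Ctrl and 1300 to 1465 FPKM in cKO and was not called, nor were Pf4 and Ccrl2.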

How the data were processed

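RNA-seq of ingWAT was analysed from 2 Ctrl and 2 cKO libraries. The authors computed FPKM for each gene and deposited one table with values to the hundredth. The submitters' processing notes name HISAT2 2.0.4, RSEM 1.2.12 and mm10, and no scaling between libraries is stated. Samples were grouped by their genotype labels. All 4 value columns were used (0 left unused), and the columns of gene annotation terms were not.

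Depth is not given in the sources used here. It was estimated from the steps between low FPKM values of genes with transcripts of at most 400 bases, and 82.8% to 88.4% of the values used came out as whole reads within 0.1. Since this did not give whole reads for genes in general, no count test was run. Estimated reads show the counting error of low genes.

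Genes with a mean of at least 1 FPKM over the 4 libraries were tested on log2(FPKM + 1), pseudocount 1, with limma 3.58.1 in R 4.3.3 (eBayes with a trend, two-sided, Benjamini-Hochberg adjustment over all genes tested, threshold 0.05). The fit was tested on simulated data. The alternatives were a pseudocount of 0.1, no filter, a minimum of 5 FPKM, median-of-ratios scaling, quantile normalization, no variance trend, a replicate block, an added log2 fold change of at least 1 and leaving out each library. With 2 libraries in a group, 1 left-out library leaves a lone sample that is assumed to vary like the other group.

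The members and gene lists were chosen with earlier results of these data known, so lists are described by counts and no list was tested. Members with a mean of at least 1 FPKM, the 5 highest below it and the 2 most abundant genes of each list were named. Results of 1 receptor and 1 signalling gene, which the counts include, and of 1 chromosomal cluster are not reported or drawn here. Chromosomal clusters are at least 3 members with gaps of at most 150 kb in RefSeq (GRCm38.p6, the same assembly as mm10). Of several listed starts of a gene the first was used for upstream sequences. Python 3.11.15, pandas 2.3.3, numpy 2.4.6 and matplotlib 3.10.9 were used for the other steps.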

Additional observations from a re-analysis of the deposited data

How the results depend on the processing

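Directions of the called members were the same under every setting tried, and the number called was what varied. With no filter on low values, 4 members were called higher (4 ligands, 0 receptors), 1 receptor was called lower, and over all genes 667 were higher and 1095 lower. A minimum of 5 FPKM left 1 receptor higher and 1 lower, and quantile normalization left 1 receptor lower. A log2 fold change of at least 1 left 3 members higher (3 ligands, 0 receptors), 0 members lower (0 ligands, 0 receptors), and 81 genes higher and 152 lower over all genes. Leaving out 1 library gave 4 to 10 members higher and 1 to 6 lower, 3 to 7 ligands higher and 1 to 5 lower, and 1 to 3 receptors higher and 0 to 1 lower. Over all genes it gave 303 to 1072 higher and 484 to 1379 lower, the lowest without Ctrl replicate 1. The median log2 fold change of the members was 0.068 to 0.218, the lowest without cKO replicate 2. The other scalings, the pseudocount and the fit without a variance trend kept the counts of members called higher at 11 to 12. Same-numbered libraries did not deviate together (correlation of deviations 0.0148). With 1 difference in each genotype this cannot decide whether the numbers mark pairs, and the sample titles give only a replicate number. With the replicate block 13 members were called higher, 6 lower, and Ccl9 and Ccr6 were added (adjusted p = 0.00775 and 0.0176). Ccr9 was called with quantile normalization (0.0421) and without the trend (0.025), and Ccl9 with a minimum of 5 FPKM (0.0227). Ccr9 passed the minimum only through its cKO libraries, so its calls are no support for a difference. With no filter it was not called (adjusted p = 0.0654). Depth limits the low members, for which Ackr4, the highest of them, had at most 43.7 estimated reads in a library.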
